A study of Mus musculus with 4 samples.

Results

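The genes described here are those through which a cell loads peptides on major histocompatibility complex (MHC) class II molecules: H2-Aa, H2-Ab1, H2-Eb1, Cd74, H2-DMa, H2-DMb1, H2-DMb2, H2-Oa, H2-Ob and Ciita. They were chosen by name, and they are 10 of the 32285 genes listed for each library. All 10 had a UMI (a counted RNA molecule) in kept cells of all 4 libraries. The libraries hold single cells of TrkAF592A mice, a genotype that the vehicle and the 1NMPP1 animals share. The change makes a nerve growth factor receptor, a kinase found on sensory neurons, open to block by the compound 1NMPP1. At 7 days after growth plate injury, cells were taken from the distal femur with the plate and its surroundings, and from lumbar dorsal root ganglia (DRG). Each tissue has 1 vehicle library, from animals given DMSO vehicle, and 1 library of 1NMPP1 animals, which received 17 µg/g by injection at 48 h and at 2 h ahead of surgery, and thereafter 40 µM in their drinking water. With 1 library in each group no difference has a replicate check and no p-value is given. The sources used here do not say how many animals went into each library, nor their age or sex.

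MHC class II molecules are pairs of an alpha and a beta chain that carry peptides from endosomes to the cell surface, where CD4+ T cells read them. Dendritic cells, B cells and macrophages are known for them. Cd74 encodes the invariant chain, which fills the peptide groove until the molecule reaches an endosome, H2-DM exchanges its remnant for a peptide, and H2-DO, mainly of B cells, holds H2-DM back. Ciita is the transactivator that switches the family on, acting through factors bound at promoter elements called X and Y.

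Letters of those elements were found in promoters of chains and of accessory genes, and they are printed because 5 of the genes share them. The RefSeq promoter table (GRCm38.p6, from 250 bases before to 50 after a start) holds 7 of the 10 genes in 8 windows, H2-DMa with 2. It was searched for CNNGNAAC, letters of the X element, followed on the gene's strand by ATTGG, letters of the Y element, 15 to 30 bases later. Letters and spacing were chosen after these windows had been seen. The pair was found in 5 of the 7 genes, with X and Y in capitals, each read 5′ to 3′ on the gene's strand:
H2-Aa, chr17:34287867-34287907, minus strand: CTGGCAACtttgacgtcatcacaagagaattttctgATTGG
H2-Eb1, chr17:34305773-34305812, plus strand: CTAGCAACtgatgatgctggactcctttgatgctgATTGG
H2-DMb1, chr17:34153094-34153134, plus strand: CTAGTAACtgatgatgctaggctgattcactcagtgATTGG
H2-Oa, chr17:34092300-34092340, plus strand: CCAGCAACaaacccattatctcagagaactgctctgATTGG
H2-Ob, chr17:34238815-34238852, plus strand: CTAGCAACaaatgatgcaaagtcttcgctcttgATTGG

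In these 5 windows the gap between X and Y was 25 to 28 bases. Of 32851 promoter windows of the same length, 0.329% held such a pair on the gene's strand and 0.636% on either strand. Counted alone on both strands, the X letters stood in 39.1% of windows and the Y letters in 37.4%. The pair was not in the windows of H2-DMa or H2-DMb2, which says only that these letters are not there at this spacing. H2-Ab1, Cd74 and Ciita had no entry.

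Of the 10 genes, 8 lie within 224 kb of chromosome 17 (GRCm38, GENCODE vM21), from H2-Oa at 34092340 to the end of H2-Eb1 at 34316674. Ciita lies on chromosome 16 at 10480059 to 10528418 and Cd74 on chromosome 18 at 60803848 to 60812652. H2-DMb1 and H2-DMb2 are close copies. Of the 50-base windows in the last 1000 bases of their transcripts, 36.7% of those of H2-DMb1 recur in H2-DMb2, so their counts may be split unevenly. Of the 951 windows of H2-DMb2, 36.4% recur elsewhere, 284 of them in H2-DMb1, and in all they are shared with 165 genes. No such window of the other 8 genes recurs in another gene. On the same strand H2-DMa overlaps CR974462.3 and Cd74 overlaps Mir5107. H2-Eb1, H2-DMa, H2-Oa and Ciita overlap a gene on the opposite strand, H2-DMa among others Brd2. The sources used here do not say whether the counting used strand, so reads of such partners cannot be told apart.

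The libraries held 32791945 to 139703885 UMIs in 2612 to 11807 barcodes, and 2151 to 10532 cells were kept, with medians of 6496.5 to 10395 UMIs. Pairs of libraries shared 4 to 40 barcodes. A cell was called male where it had UMIs of Y-linked genes but none of Xist, and female in the opposite case. In the growth plate region 49.7% (vehicle) and 24.9% (1NMPP1) of cells were called male, in the DRG 45.5% and 17.4%. Female-called cells were 15.9% and 39.1%, and in the DRG 20.1% and 47.5%. Every vehicle library thus leaned male and every 1NMPP1 library female. Levels are given as CPM, a gene's share of all UMIs of a class in a library on the usual counts-per-million scale, with exact 95% Poisson intervals that cover counting error only. The sum of H2-Aa, H2-Ab1 and H2-Eb1 is called the class II core. Because UMIs per gene depend on where a gene's transcripts are read, the CPM of different genes are not compared.

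Cells were clustered without the 10 genes, so that these did not make the classes, and each class is called "-like" after its markers. The dendritic name needs a limit: in no cluster did the conventional dendritic markers score highest. Clusters that scored highest for monocyte markers and in which 7 to 9 of the 9 conventional dendritic markers were detected were kept apart as dendritic-marker monocyte-like cells, by a rule set after the clusters were seen. In plasmacytoid dendritic cell-like clusters 5 or 6 of their 6 markers were detected, but 2 growth plate clusters were led by Dntt or Auts2. Growth plate mature B-like cells numbered 29 and 62 (vehicle and 1NMPP1, the order used throughout) and those of the DRG 12 and 21. Free RNA can put UMIs into cells that do not express a gene, and classes that should lack class II chains give its level. The class II core stood at 6.17 and 9.80 CPM in growth plate T cell-like cells, at 6.53 and 11.3 CPM in neutrophil-like cells (median depth 5514 and 5796 UMIs), and at 3.66 and 3.32 CPM in DRG neutrophil-like cells. After thinning every cell to 1000 UMIs, 0.825% and 1.44% of growth plate neutrophil-like cells had a class II core UMI (4.68% and 8.39% unthinned).

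**Figure D1:**
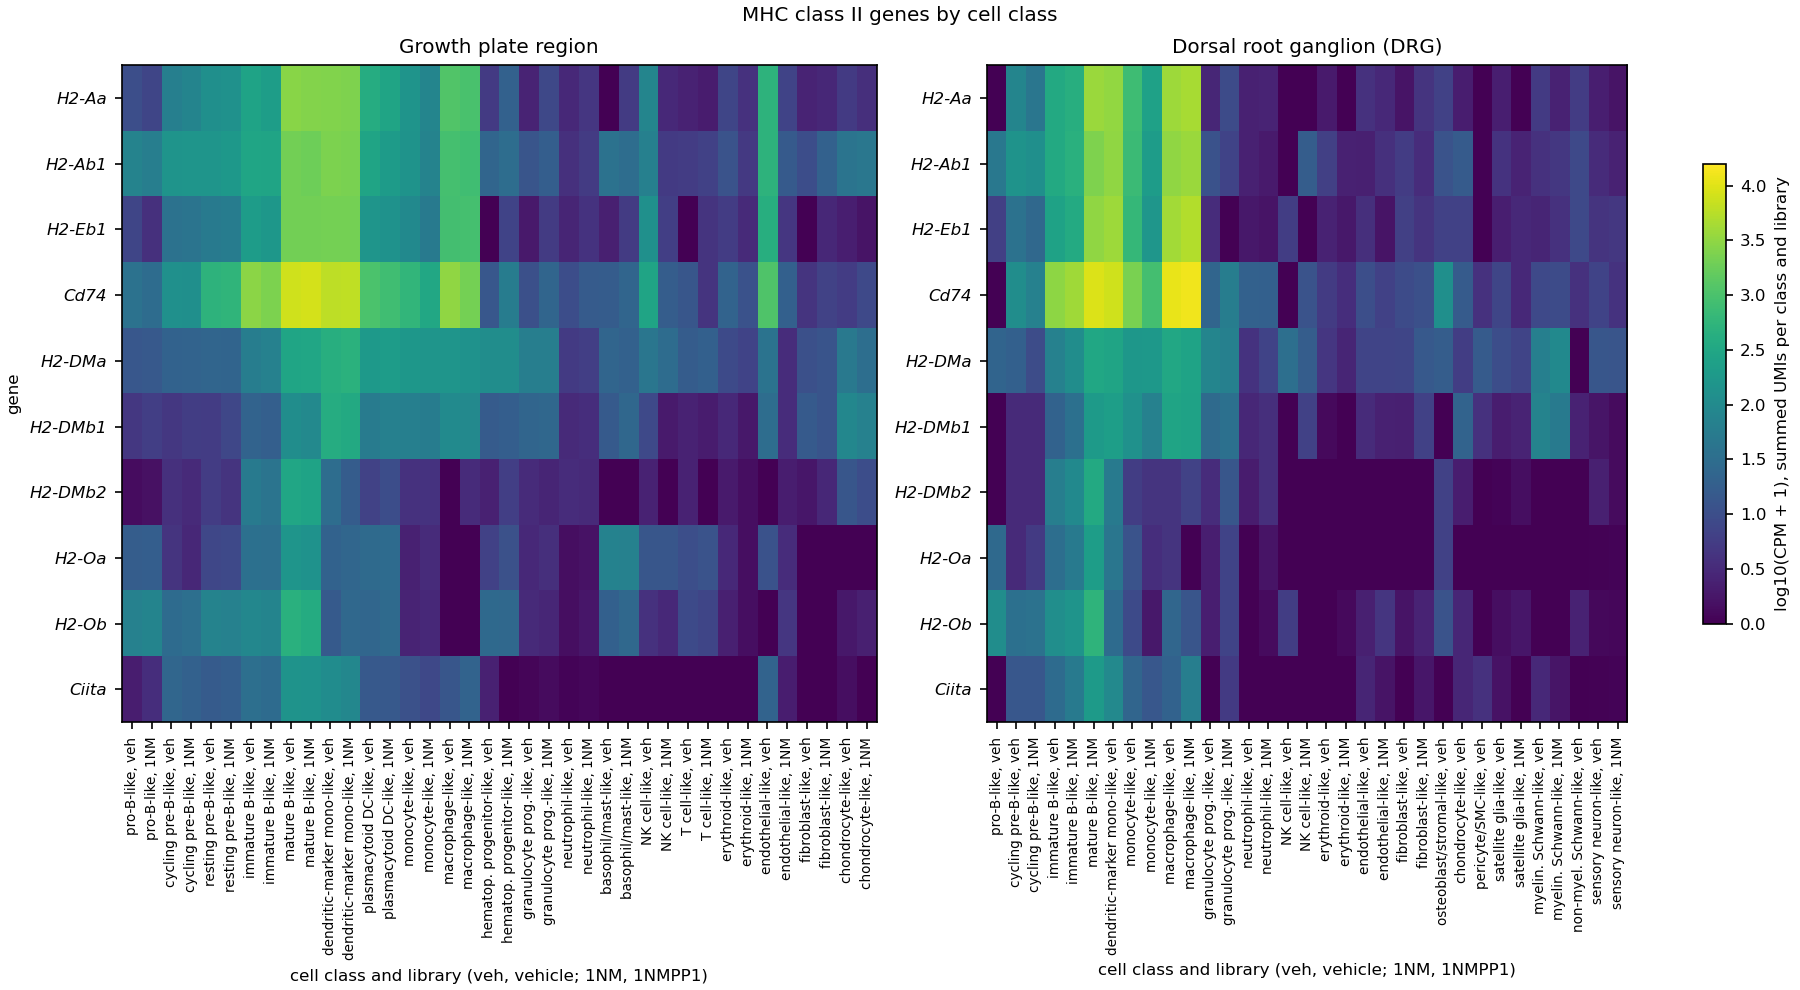
Levels of the 10 genes as log10(CPM + 1) in each cell class (columns, vehicle and 1NMPP1 side by side) of the growth plate region and the DRG, for classes of at least 20 cells in a library. The chains and Cd74 are brightest in mature B-like, dendritic-marker monocyte-like and macrophage-like cells. H2-DMb2 and H2-Ob are brightest in mature B-like cells, and H2-Ob reaches all B-like classes while H2-DMb2 is low in pro-B-like and pre-B-like cells. H2-DMa and H2-DMb1 reach into chondrocyte-like and myelinating Schwann-like cells.

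Which cells of each tissue carried the chains was the first question. In the growth plate, dendritic-marker monocyte-like cells and mature B-like cells held the highest class II core. Dendritic-marker monocyte-like cells were at 6963 CPM (6797 to 7132) in the vehicle and 6859 CPM (6727 to 6994) in the 1NMPP1 library. Mature B-like cells were at 6852 CPM (6442 to 7282) and 6505 CPM (6251 to 6766), with intervals that overlap the former in both libraries. Macrophage-like cells followed at 2933 and 2745 CPM, in 39 and 49 cells. Plasmacytoid dendritic cell-like cells, at 831 CPM (784 to 881) and 629 CPM (598 to 661), and immature B-like cells, at 776 CPM (741 to 812) and 671 CPM (642.8 to 699.5), had overlapping intervals in each library. Below them stood monocyte-like cells at 387 and 206 CPM, resting pre-B-like cells at 332 and 358 CPM, cycling pre-B-like cells at 249 and 274 CPM and pro-B-like cells at 91.3 and 70.1 CPM. The order of monocyte-like and pre-B-like cells was therefore not the same in both libraries.

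In the DRG, among classes of at least 20 cells, macrophage-like cells led. Macrophage-like cells held 11087 CPM (10823 to 11356) and 13402 CPM of class II core, in 64 and 57 cells, above the 2933 and 2745 CPM of the growth plate class. With the largest cluster of each class alone the class II core of the vehicle libraries stood the other way, at 4613 CPM in the DRG and 6350 CPM in the growth plate. In the 1NMPP1 libraries the DRG stayed above, at 7642 CPM against 1246 CPM. Dendritic-marker monocyte-like cells of the vehicle DRG were at 10274 CPM in 23 cells, and mature B-like cells of the 1NMPP1 DRG at 9296 CPM in 21 cells. Monocyte-like cells stood at 2163 and 619 CPM and immature B-like cells at 972 and 1269 CPM. The tissues were digested in different ways, so tissue and preparation cannot be told apart.

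Within these classes the chains were spread unevenly over cells. Every mature B-like cell of the growth plate had a class II core UMI, also when thinned to 1000 UMIs. Of dendritic-marker monocyte-like cells 68.9% and 80.5% had one, of DRG macrophage-like cells 84.4% and 82.5%, and of growth plate macrophage-like cells 56.4% and 38.8%. DRG macrophage-like cells fell into 3 clusters. The one with the highest class II core had 21260 and 24283 CPM (15 and 25 cells), the lowest of the vehicle library 4613 CPM (27 cells) and the lowest of the 1NMPP1 library 2544 CPM (6 cells). The level of the largest DRG cluster alone, 4613 CPM in the vehicle library, is thus far under that of the whole class. Dendritic-marker monocyte-like cells likewise held a cluster at 12812 and 10843 CPM and one at 2238 and 1397 CPM, and over 10 alternatives of processing the vehicle level ran from 2590 to 12812 CPM.

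**Figure D2:**
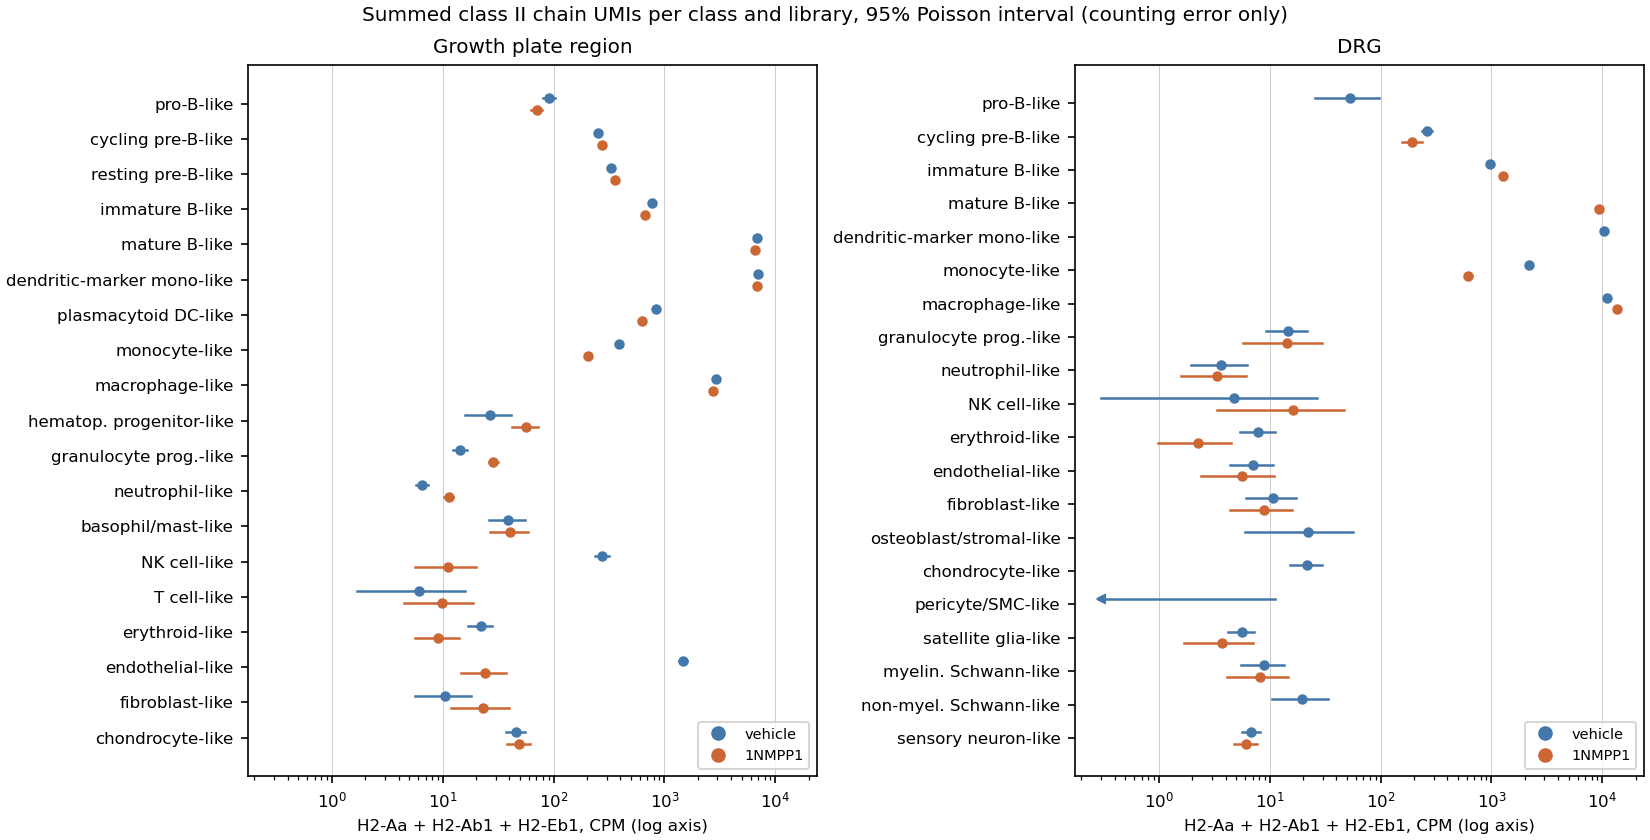
Summed CPM of H2-Aa, H2-Ab1 and H2-Eb1 (log axis) by cell class, in the growth plate region and in the DRG; points are single libraries and bars exact 95% Poisson intervals of counting error. Mature B-like, dendritic-marker monocyte-like and macrophage-like cells lie at 2745 CPM or more and most non-blood classes under 50 CPM; the arrow marks a class with 0 UMIs, whose interval ends at 11.1 CPM, and the vehicle growth plate endothelial-like point rests mostly on 1 cell.

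Along the B lineage of the growth plate the genes did not appear together. Pro-B-like cells already held H2-Ab1 at 75.7 CPM (198 UMIs) and 60.8 CPM (233 UMIs), and H2-Ob at 68.4 and 77.7 CPM. In the same cells H2-Aa, whose chain pairs with that of H2-Ab1, stood at 9.17 and 6.52 CPM. H2-Eb1 stood at 6.498 and 2.87 CPM. In cycling pre-B-like cells H2-Aa stood at 64.0 and 78.3 CPM, H2-Eb1 at 36.6 and 40.8 CPM and Ciita at 23.2 and 19.4 CPM, from 1.15 and 2.61 CPM of Ciita (3 and 10 UMIs) in pro-B-like cells. Each of these 3 genes was higher in cycling pre-B-like than in pro-B-like cells in both libraries, with intervals that do not overlap.

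The invariant chain gene Cd74 stood at 36.7 and 29.7 CPM in pro-B-like cells, at 126 and 123 CPM in cycling pre-B-like, at 522 and 557 CPM in resting pre-B-like, at 2904 and 2321 CPM in immature B-like and at 7863 and 8460 CPM in mature B-like cells. Every step of Cd74 was upward in both libraries. Between resting pre-B-like and immature B-like cells Cd74 went from 522 to 2904 CPM in the vehicle library, while H2-Ab1 went from 156 to 294 CPM and H2-Aa from 123 to 277 CPM. The share of Cd74 in the UMIs of Cd74 and the class II core was accordingly highest in immature B-like cells, at 78.9% (78.1% to 79.8%) and 77.6%, against 61.1% and 60.9% in resting pre-B-like and 53.4% and 56.5% in mature B-like cells. In the DRG the immature B-like share was 76.2% and 75.9%. Of the B-like classes compared, immature B-like cells held the most Cd74 for their chains in every library.

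From immature to mature B-like cells the chains took their largest step in CPM. H2-Aa went from 277 and 217 CPM to 2815 and 2585 CPM, H2-Ab1 from 294 and 288 CPM to 2048 and 1882 CPM, and H2-Eb1 from 205 and 166 CPM to 1989 and 2037 CPM. H2-DMa went from 59.1 and 69.1 CPM to 291 and 300.1 CPM and H2-DMb2 from 53.3 and 39.8 CPM to 304 and 271 CPM. The immature B-like class was not uniform: its clusters ran from 174 CPM of class II core (69 cells of both libraries) to 2770 CPM (110 cells). The mature B-like values of the vehicle library rest on 29 cells.

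**Figure D3:**
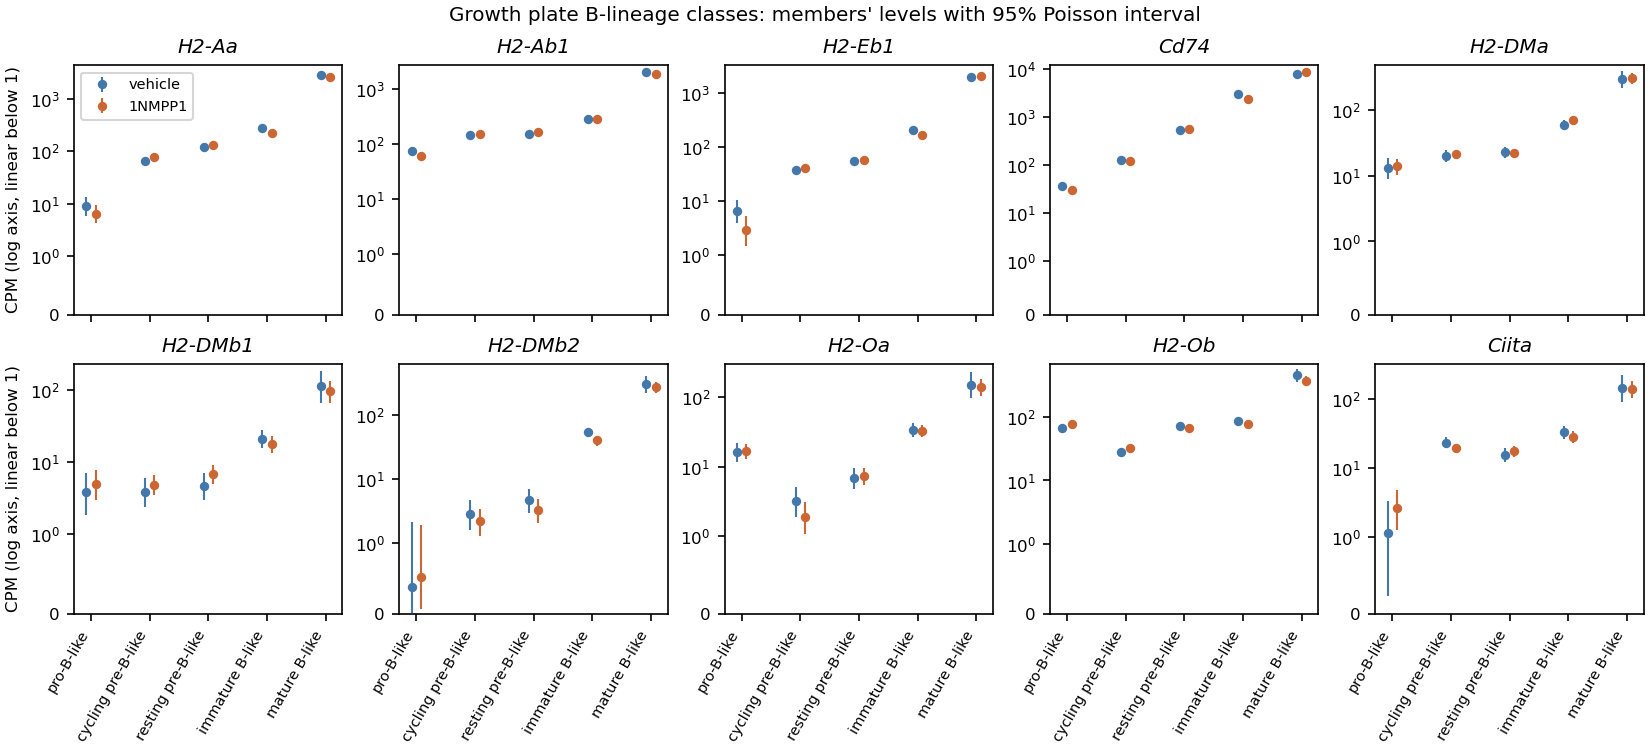
CPM of each of the 10 genes (log axis, linear below 1) in the 5 B-like classes of the growth plate region, vehicle and 1NMPP1; points are single libraries and bars exact 95% Poisson intervals. Most genes climb from pro-B-like to mature B-like cells, while H2-Ob and H2-Oa are lower in cycling pre-B-like than in pro-B-like cells, H2-Ob at 28.3 and 32.8 CPM after 68.4 and 77.7 CPM.

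The chains of one molecule were not counted in a fixed ratio. Of the UMIs of H2-Aa and H2-Ab1 together, H2-Ab1 made up 89.2% (84.3% to 92.9%) and 90.3% (86.0% to 93.6%) in pro-B-like, 69.9% and 66.4% in cycling pre-B-like, 56.0% and 56.7% in resting pre-B-like, 51.5% and 57.0% in immature B-like and 42.1% and 42.1% in mature B-like cells. The share thus fell from pro-B-like to mature B-like cells in both libraries, with 1 step in the 1NMPP1 library, from resting pre-B-like to immature B-like, where it did not. In dendritic-marker monocyte-like, monocyte-like, macrophage-like and plasmacytoid dendritic cell-like cells of both tissues it lay between 41.6% and 49.6%. Growth plate chondrocyte-like cells had shares near those of pro-B-like cells, at 90.5% (83.2% to 95.3%) and 94.3% (86.0% to 98.4%). In the vehicle library 1 of 73 such cells gave 12.0% of the class II core UMIs, and in the 1NMPP1 library 1 of 29 gave 35.2%. Most of these cells also held UMIs of immune genes, as given below.

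H2-DM is a pair of one alpha chain, H2-DMa, and a beta chain from either H2-DMb1 or H2-DMb2. The beta genes divided the blood classes. H2-DMb2 made up 73.0% (60.3% to 83.4%) and 74.1% (66.0% to 81.2%) of the UMIs of both beta genes in growth plate mature B-like cells and 65.0% in those of the 1NMPP1 DRG. In immature B-like cells it was 72.1% and 69.4%, and 75.5% and 74.3% in the DRG. H2-DMb1 took most of them in 4 other classes: H2-DMb2 was at 7.21% and 4.12% in dendritic-marker monocyte-like cells of the growth plate and 18.8% (of 128 UMIs) in those of the vehicle DRG, at 4.56% and 5.15% in monocyte-like cells, at 9.41% and 11.9% in plasmacytoid dendritic cell-like cells and, in the DRG, at 1.16% and 2.22% in macrophage-like cells. Immature and mature B-like cells lay above 60% in each library with at least 20 cells and these 4 classes under 20%. Earlier B-like classes of the growth plate lay lower than immature B-like cells. H2-DMb2 was at 42.9% (of 35 UMIs) and 31.0% (of 58 UMIs) in cycling pre-B-like cells. In resting pre-B-like cells it was at 50% (of 46 UMIs) and 32.4% (of 71 UMIs), and in pro-B-like cells of the 1NMPP1 library at 9.52% (of 21 UMIs). Elsewhere among myeloid classes H2-DMb2 made up 52.9% (of 157 UMIs) and 45.2% (of 217 UMIs) in growth plate neutrophil-like cells. It made up 26.1% (of 23 UMIs) in granulocyte progenitor-like cells of the 1NMPP1 DRG. The neutrophil-like shares rest on 83 and 98 UMIs of H2-DMb2 in 4528 and 5780 cells. That class was used above to give the level of free RNA, and the part of free RNA in these shares was not tested. Reads in the stretches shared by the copies may be assigned to neither gene or to the wrong one.

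**Figure D4:**
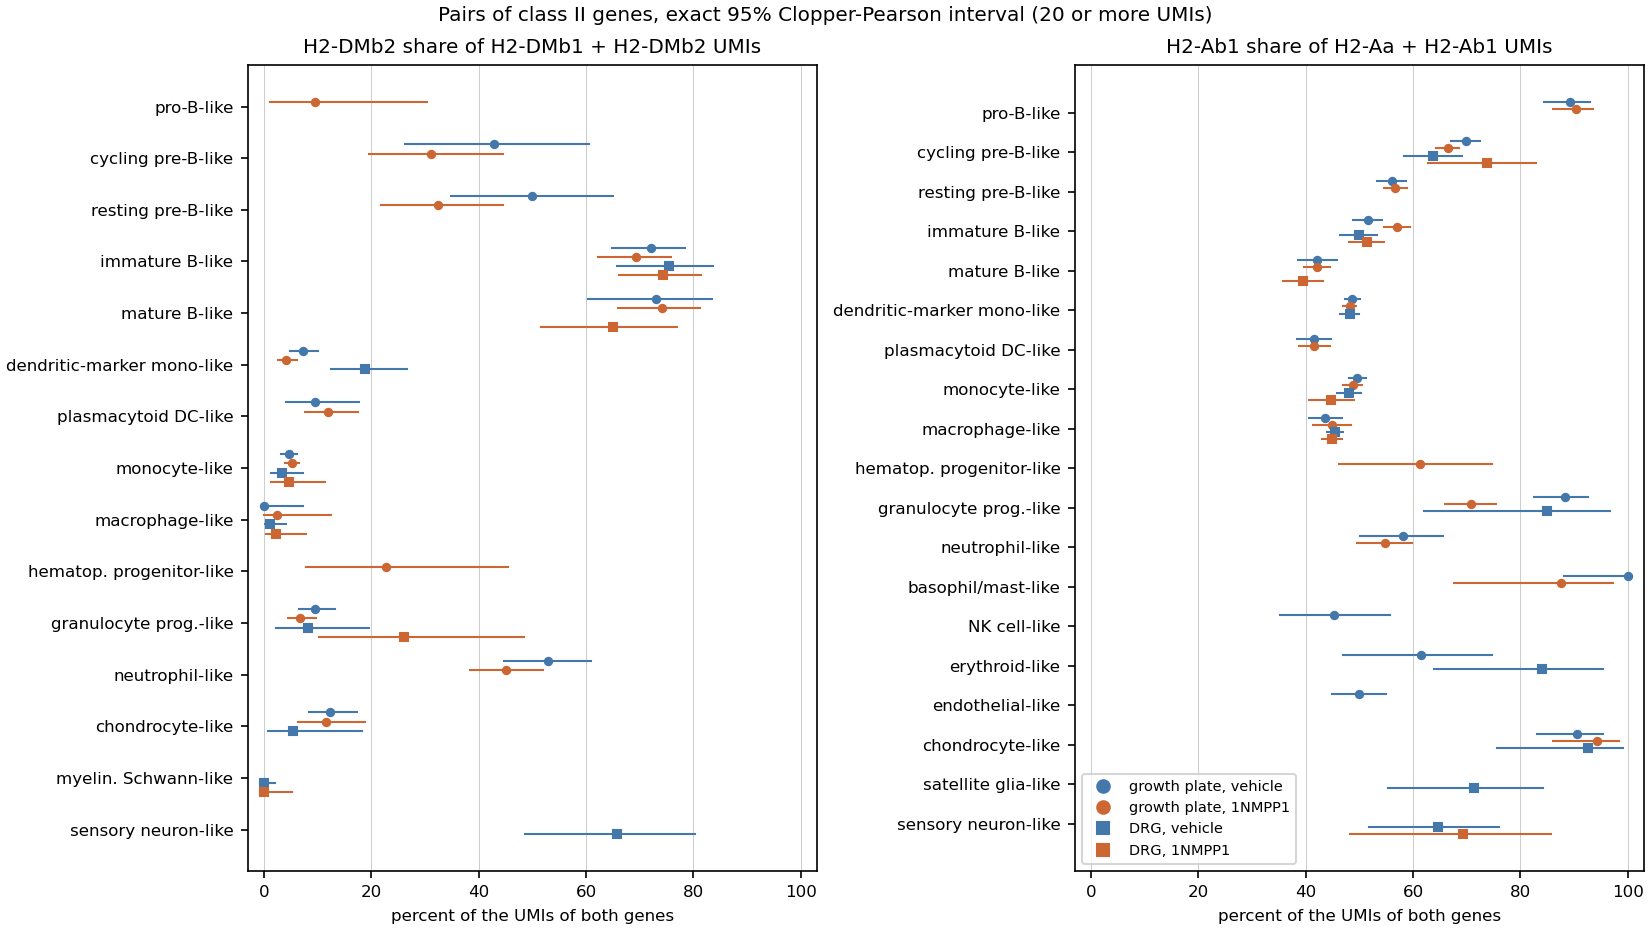
Share of H2-DMb2 among the UMIs of H2-DMb1 and H2-DMb2 (left) and of H2-Ab1 among those of H2-Aa and H2-Ab1 (right), in percent, by cell class and library, with exact 95% Clopper-Pearson intervals; classes with at least 20 UMIs of the pair are drawn. Immature and mature B-like cells lie above 60% on the left, and dendritic-marker monocyte-like, monocyte-like, macrophage-like and plasmacytoid dendritic cell-like cells below 20%. Growth plate neutrophil-like cells, a class used to give the level of free RNA, lie at 52.9% and 45.2%. On the right pro-B-like and chondrocyte-like cells lie near 90%.

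In level, H2-DMa was highest in dendritic-marker monocyte-like cells of the growth plate, at 428 and 473 CPM, and mature B-like cells held 291 and 300.1 CPM. DRG macrophage-like cells held it at 323 and 275 CPM. It reached cells with little class II core as well. Growth plate monocyte-like cells held H2-DMa at 167 and 155 CPM, and 8 of their 12 clusters had under 15 CPM of class II core while H2-DMa stayed between 101 and 406 CPM in those 8. H2-DMb1 stood at 63.6 and 57.5 CPM in monocyte-like cells and at 402 and 359 CPM in dendritic-marker monocyte-like cells.

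H2-DO is the pair of H2-Oa and H2-Ob. Both were highest in mature B-like cells, H2-Oa at 152 and 139.5 CPM and H2-Ob at 469 and 382 CPM in the growth plate and, in 21 cells of the 1NMPP1 DRG, at 219 and 530 CPM. H2-Ob was present from the first stage: pro-B-like cells held 68.4 and 77.7 CPM, resting pre-B-like cells 73.6 and 68.7 CPM and immature B-like cells 86.4 and 77.7 CPM. H2-Oa stood at 16.1 and 16.7 CPM in pro-B-like, at 3.23 and 1.91 CPM in cycling pre-B-like and at 33.9 and 32.7 CPM in immature B-like cells. Both genes were thus lower in cycling pre-B-like cells than in the classes beside them. Plasmacytoid dendritic cell-like cells held H2-Oa at 27.4 and 28.8 CPM and H2-Ob at 23.1 and 27.2 CPM. Growth plate macrophage-like cells had 0 UMIs of H2-Oa and H2-Ob in both libraries, which allows up to 6.14 and 6.88 CPM.

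Ciita, the transactivator, was highest in mature B-like and dendritic-marker monocyte-like cells among growth plate classes. It stood at 145 and 139.5 CPM in mature B-like, at 111 and 85.9 CPM in dendritic-marker monocyte-like, at 32.6 and 28.4 CPM in immature B-like, at 13.7 and 13.8 CPM in plasmacytoid dendritic cell-like and at 9.91 and 7.23 CPM in monocyte-like cells. Its order was not that of the class II core, since cycling pre-B-like cells, with less class II core than plasmacytoid dendritic cell-like cells, held more Ciita, at 23.2 and 19.4 CPM. DRG macrophage-like cells, with more class II core than any growth plate class, held Ciita at 19.9 CPM (12 UMIs) and 61.4 CPM (21 UMIs). The factors it works with at the X element were read in a few growth plate classes. Rfx5 ran from 0 to 19.8 CPM, Rfxank from 0 to 15.8 CPM and Rfxap from 14.3 to 41.9 CPM over the mature B-like, immature B-like, monocyte-like and macrophage-like cells of the growth plate. H2-Eb2, a further class II beta gene and the only one of the 3 other class II loci listed that the files hold, reached 85.9 and 81.6 CPM in growth plate mature B-like cells.

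Across 59 points (classes of at least 30 cells in a library), the Pearson correlation of each gene's log2(CPM + 1) with that of the class II core was computed as a description. Points share libraries and differ in depth, and the core genes are part of their own sum. It was 0.990 for H2-Ab1, 0.976 for H2-Aa, 0.962 for H2-Eb1, 0.960 for Cd74, 0.909 for Ciita, 0.784 for H2-DMa, 0.762 for H2-DMb1, 0.664 for H2-DMb2, 0.595 for H2-Ob and 0.507 for H2-Oa. Among 14806 other genes with at least 100 UMIs, the 10 most alike were Cd180 at 0.907, Ctss at 0.867, Pld4 at 0.856, Kmo at 0.845, Cd83 at 0.838, Slamf9 at 0.831, Irf5 at 0.830, Pou2f2 at 0.824, Susd3 at 0.816 and Cd40 at 0.798. Ctss encodes the endosomal protease cathepsin S and Cd83 a surface protein that keeps class II molecules on dendritic cells. Rfx5 had 0.356, Rfxank 0.0953 and Rfxap 0.0695.

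Outside the blood, the chains were low and H2-DM was not always so. Myelinating Schwann-like cells of the DRG, the glia that wrap sensory axons, held H2-DMa at 64.8 CPM (55.0 to 75.9, 154 UMIs) and 96.8 CPM (129 UMIs) and H2-DMb1 at 73.2 CPM (174 UMIs) and 51.8 CPM (69 UMIs), in 321 and 264 cells. Their class II core was 8.84 CPM (5.47 to 13.5, 21 UMIs) and 8.25 CPM (4.12 to 14.8, 11 UMIs). Neutrophil-like cells of the same libraries stood at 3.66 and 3.32 CPM and erythroid-like cells at 7.91 and 2.26 CPM. The Schwann-like intervals overlap theirs in both libraries, and no class II core expression is read from these values. H2-DMb2, H2-Oa and H2-Ob had 0 UMIs in them, which allows up to 1.26 and 2.25 CPM for each. In satellite glia-like cells H2-DMa was at 8.67 and 6.16 CPM and H2-DMb1 at 1.14 and 1.64 CPM. Both genes of H2-DM were therefore higher in the myelinating Schwann-like class than in satellite glia-like cells in either library, with intervals that do not overlap.

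The Schwann-like signal was not even. One cluster of 59 and 76 cells held H2-DMa at 139 and 174 CPM and H2-DMb1 at 179 and 99.7 CPM, while the largest, with 153 and 153 cells, held them at 24.8 and 30.5 CPM and at 14.6 and 15.3 CPM. Immune genes of the fixed list were low: of 10, Lyz2 was highest at 32.8 and 18.0 CPM, each of the other 9 was at 4.21 CPM or less in both libraries, and Ptprc was at 0 CPM in the 1NMPP1 library. Left with the 233 vehicle cells that had no UMI of any of the 10, H2-DMa stood at 67.2 CPM. Thinned to 1000 UMIs per cell, in the 279 vehicle cells deep enough for this, H2-DMa was at 43.0 CPM. That value rests on few UMIs, so a dependence on depth cannot be read from it. The level did differ between clusters. Counts of H2-DMa could include those of overlapping genes, such as CR974462.3 on the same strand or Brd2 on the opposite strand. This bears on H2-DMa and not on H2-DMb1.

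Growth plate chondrocyte-like cells, the cartilage cells of the plate, held H2-DMb1 at 86.9 CPM (206 UMIs) and 68.7 CPM (100 UMIs), H2-DMa at 49.8 and 31.6 CPM and H2-Ab1 at 40.1 CPM (95 UMIs) and 45.4 CPM (66 UMIs), in 73 and 29 cells. H2-Aa had 10 and 4 UMIs in them, H2-Eb1 3 and 1, Cd74 11 and 11 and Ciita 1 and 0. In the neutrophil-like cells of the same libraries H2-Ab1 was at 2.79 and 4.45 CPM and Cd74 at 8.92 and 15.03 CPM. In chondrocyte-like cells H2-Ab1 was thus above the neutrophil-like level and Cd74, at 4.64 and 7.56 CPM, below it. The immune list was not empty there, with Lyz2 at 79.7 and 179 CPM and Cd79a at 15.6 and 42.6 CPM. Only 13 of the 73 vehicle cells had no UMI of the list, and in those 13 the class II core was at 9.81 CPM, from 1 UMI, against 45.6 CPM in all. Each of the 29 cells of the 1NMPP1 library had a UMI of the list. In chondrocyte-like cells of the vehicle DRG, 27 of 54 had no UMI of the list, and their class II core was 24.1 CPM (13 UMIs) against 21.5 CPM in all. The part of such RNA in the chondrocyte-like values was not tested beyond this.

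Fibroblast-like, endothelial-like, satellite glia-like and sensory neuron-like cells of the DRG had a class II core of 3.70 to 10.7 CPM in both libraries, and Cd74 between 2.05 and 9.61 CPM. These values lie in the range of neutrophil-like and erythroid-like cells or just above it, and no expression is read from them. Non-myelinating Schwann-like cells of the vehicle DRG stood higher, at 19.6 CPM (10.4 to 33.5, 13 UMIs) in 89 cells. That interval lies above the neutrophil-like one (1.95 to 6.27) and overlaps the erythroid-like one (5.37 to 11.2). In the 64 cells with no UMI of the immune list the class II core was 20.1 CPM (9 UMIs), and its source was not tested. Growth plate endothelial-like cells show how 1 cell can set such a value: the vehicle class of 24 cells was at 1456 CPM, of which 87.4% came from 1 cell, and the 25 cells of the 1NMPP1 library were at 24.1 CPM. In growth plate NK cell-like cells of the vehicle library 1 of 62 cells gave 95.1% of the class II core.

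The comparison of 1NMPP1 with vehicle asked whether blocking the kinase went with another level of the family within a class. Log2 ratios are 1NMPP1 over vehicle, with exact 95% intervals of counting error. A gene is read with at least 20 UMIs over both libraries, and past the fold means a ratio of at least 1.5 in either direction. Ratios are given for 15 classes. Those of other classes were computed but are not given gene by gene. In growth plate neutrophil-like cells the class II core was at 6.53 CPM (5.71 to 7.44) and 11.3 CPM (10.4 to 12.3). It was at 14.4 and 28.5 CPM in granulocyte progenitor-like and at 22.0 and 9.12 CPM in erythroid-like cells. Median ratios of the family's genes read were 0.67, 0.36 and -1.02 in these classes, against 0.04, -0.01 and -0.24 for all genes. No change is read from these low levels. In the 1NMPP1 library 1 granulocyte progenitor-like cell gave 46.0% of the class II core UMIs, and in the vehicle library 1 erythroid-like cell gave 62.1%. In growth plate monocyte-like cells (847 and 1108) all 10 genes could be read, and 4 were lower past the fold, where 4.38% of all genes read were lower in this sense. H2-Aa went from 146 to 79.1 CPM, H2-Ab1 from 143 to 75.3 CPM, H2-Eb1 from 97.9 to 51.8 CPM and Cd74 from 574 to 334 CPM, with log2 ratios of -0.88, -0.93, -0.92 and -0.78. The class II core ratio was -0.91 (-0.97 to -0.85). H2-DMa, at -0.11, and H2-DMb1, at -0.14, stayed within the fold. H2-Oa was higher at 0.68 (-0.12 to 1.58, 18 and 45 UMIs), where 4.31% of genes were higher. Cd79a, a B cell gene, was higher as well, at 2.80 and 5.04 CPM, and its part in this was not tested.

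The growth plate monocyte-like difference had opposite directions in male-called and female-called cells. In male-called cells the class II core was 492 CPM in the vehicle and 272 CPM in the 1NMPP1 library, a log2 ratio of -0.86 (-0.94 to -0.77). In female-called cells it was 90.5 and 183 CPM, a ratio of 1.02 (0.83 to 1.21). The libraries held 541 and 358 male-called and 153 and 603 female-called monocyte-like cells. In the largest cluster, with 497 and 673 cells, the class II core was 763 and 453 CPM. The share of cells with a class II core UMI was 20.4% and 23.7%, and 9.18% and 6.97% at 1000 UMIs per cell. Counting the dendritic-marker clusters with these cells brought the ratio to -0.32. What part sex has in the difference was not tested.

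DRG monocyte-like cells (72 and 102) had a class II core ratio of -1.80 (-1.92 to -1.69). Of the 7 genes read 6 were lower past the fold, where 7.51% of all genes were lower and 13% higher: H2-Aa at -1.65, H2-Ab1 at -1.84, H2-Eb1 at -1.96, Cd74 at -1.35, H2-DMb1 at -0.95 and Ciita at -0.80 (-1.83 to 0.14). H2-DMa, at 0.05, did not move with them. B cell genes moved the same way, Cd79a from 21 to 0 UMIs and Cd79b from 33 to 14, and their part in the result was not tested. Few cells carry the class II core: 1 cell gave 29.2% of the class II core UMIs of the vehicle class and 1 gave 34.6% in the 1NMPP1 class. A cluster of 33 and 55 cells went from 2870 to 404 CPM, and one of 17 and 16 cells was at 3376 and 3917 CPM. Clustering each library on its own brought the ratio to -0.11, and without removal of doublets it was -0.48. Male-called cells made up most of the vehicle class, at 43 cells, and female-called cells most of the 1NMPP1 class, at 64 cells, so that no comparison within a sex could be made.

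In all cells of each B-like class the class II core ratio was within the fold, though not in every subset of these cells. It was -0.38 in pro-B-like (-0.64 to -0.12), 0.14 in cycling pre-B-like, 0.11 in resting pre-B-like and -0.21 (-0.30 to -0.12) in immature B-like cells of the growth plate. The largest immature B-like cluster alone had a class II core ratio of 1.05. Of 8 genes read in pro-B-like cells 1 was past the fold, H2-Eb1 at -1.16 with 17 and 11 UMIs, where 5.70% of all genes were lower and 5.29% higher. In cycling pre-B-like cells 1 of 10 was, H2-Oa at -0.75 with 17 and 16 UMIs, where 4.31% were lower and 4.59% higher. In resting pre-B-like and in immature B-like cells none of 10 was past the fold, where 4.97% and 8.82% of all genes were higher and 3.73% and 5.81% lower.

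DRG immature B-like cells (202 and 237) went the other way. Their class II core ratio was 0.38 (0.27 to 0.50), Cd74 was at 0.36, and 5 of 10 genes were higher past the fold: H2-DMa at 0.71, H2-DMb1 at 0.77, H2-DMb2 at 0.68, H2-Oa at 0.68 and Ciita at 0.87. Of all genes in this class 16.4% were higher and 7.39% lower. Their clusters took different shares of the libraries. The cluster with the most class II core held 57 vehicle and 108 1NMPP1 cells, and in it the class II core was 2510 and 2255 CPM, lower in the 1NMPP1 library.

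Sex-called cells split the immature B-like class in both tissues. In growth plate cells called male the class II core was 862 and 412 CPM, a ratio of -1.06 (-1.25 to -0.88), and in those called female 611 and 770 CPM, a ratio of 0.33 (0.18 to 0.49). In the DRG male-called cells were at 1255 and 445 CPM (115 and 30 cells), a ratio of -1.48, and female-called cells at 611 and 1474 CPM (60 and 167 cells), a ratio of 1.27. In growth plate pro-B-like cells the class II core ratio was -0.91 (-1.41 to -0.45) in male-called and 0.09 (-0.42 to 0.66) in female-called cells. Pre-B-like classes did not part in this way, with ratios of -0.02 and 0.20 in cycling and 0.03 and 0.27 in resting pre-B-like cells, male-called first. With 1 library per group the animals and the sexes in it cannot be told apart.

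**Figure D5:**
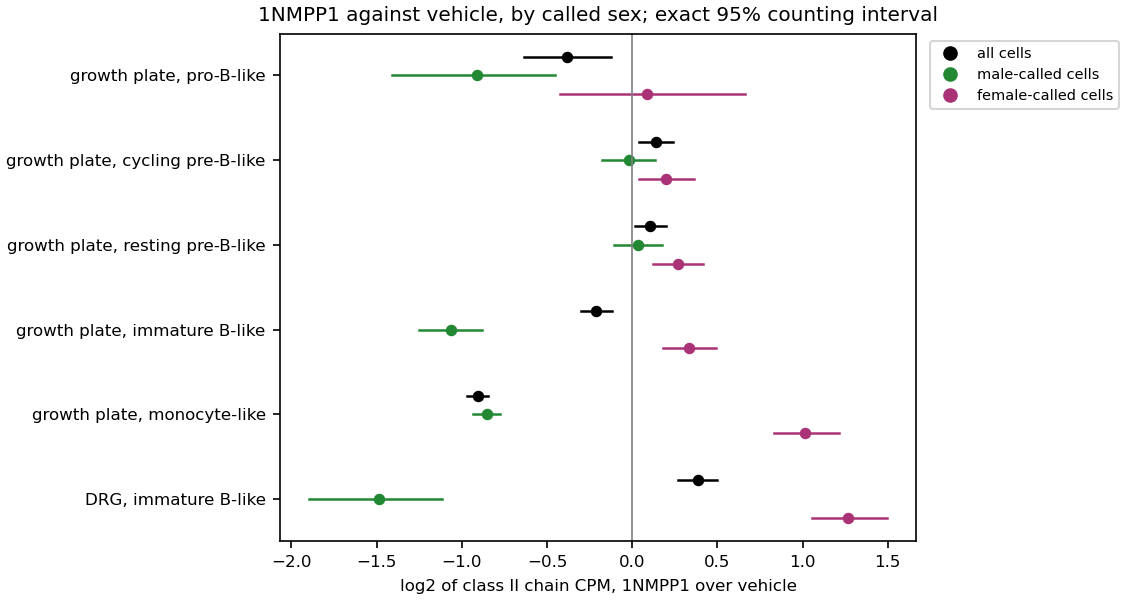
Log2 ratio of the class II core CPM, 1NMPP1 over vehicle, in all cells, male-called cells and female-called cells of 6 classes; points are ratios of single libraries and bars exact 95% intervals of counting error. Male-called and female-called cells lie on opposite sides of 0 in growth plate monocyte-like cells (-0.86 and 1.02) and in immature B-like cells of both tissues (-1.06 and 0.33, -1.48 and 1.27).

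In dendritic-marker and macrophage classes of the growth plate the class II core ratio in all cells was within the fold, but it depended on single cells, clusters or the clustering. In dendritic-marker monocyte-like cells of the growth plate (61 and 77) the class II core ratio was -0.02 (-0.07 to 0.02). Of 10 genes 1 was lower past the fold, H2-DMb2 at -1.01 with 30 and 23 UMIs, where 10.6% of all genes were lower, and 1 was higher, H2-Ob at 0.77 with 14 and 38 UMIs, where 7.66% were. With each library clustered on its own the class II core ratio was 1.20. Plasmacytoid dendritic cell-like cells (102 and 144) had a ratio of -0.40 (-0.51 to -0.29), with Cd74 at -0.33 and H2-DMa at 0.20, and none of 10 genes past the fold, where 7.60% of all genes were higher and 5.95% lower. In the 1NMPP1 library 1 of these cells gave 33.1% of the class II core UMIs. Without the top cell of each library the ratio was -0.77, and with each library clustered on its own -0.98, both past the fold, while the 8 other alternatives stayed within it. Growth plate macrophage-like cells were at -0.10 (-0.21 to 0.02) and had 6 genes read and 1 lower past the fold, Cd74 at -0.60, where 16.5% of all genes were lower. In the 1NMPP1 library 1 of 49 cells gave 38.5% of the class II core UMIs, and the class II core ratio ran from -0.45 without the top cell of each library to 0.91 with each library clustered on its own. In 1 of their 3 clusters, with 11 and 15 cells, the class II core was 854 and 5844 CPM, and in the other two, with 20 and 20 and with 8 and 14 cells, 6350 and 1246 CPM and 2945 and 16.8 CPM.

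In DRG macrophage-like cells the class II core ratio was 0.27 (0.22 to 0.33) and that of Cd74 0.20. Of 7 genes read 1 was higher past the fold, Ciita at 1.60 (0.54 to 2.78) with 12 and 21 UMIs, where 17.5% of all genes were higher. The core ratio lay between 0.24 and 0.47 over 8 alternatives of processing. Male-called cells, female-called cells and the largest cluster alone were not among these, since too few cells were left. In the largest cluster the class II core level was 4613 and 7642 CPM. In 4 non-blood classes of the DRG only 2 or 3 of the genes reached 20 UMIs. Ratios of sensory neuron-like cells are not given, since their median depth was 1343 and 140580 UMIs. Their class II core was at 6.81 and 6.10 CPM. Myelinating Schwann-like cells had 3 read and none past the fold, where 17.6% were higher and 8.57% lower, with H2-DMa at 0.58 (0.23 to 0.92) and H2-DMb1 at -0.49 (-0.92 to -0.09), the 2 chains of H2-DM on opposite sides of 0. Of 3 genes read in satellite glia-like cells 2 were lower, Cd74 at -1.56 with 64 and 5 UMIs and H2-Ab1 at -0.77 with 30 and 4 UMIs, where 10.5% of all genes were lower and 22.3% higher. Endothelial-like cells had 2 read and 1 lower, Cd74 at -0.64 with 27 and 8 UMIs, where 9.46% were lower and 25.4% higher, and fibroblast-like cells 2 read and 1 higher, H2-DMa at 1.00 with 10 and 17 UMIs, where 17.2% were higher and 9.45% lower. The Cd74 and H2-Ab1 values of satellite glia-like and endothelial-like cells lie at low levels at which no expression is read, and no change is read from them. Genes of the immune list that could be read had a median ratio of 1.13 in satellite glia-like (6 of 10 read) and -1.38 in endothelial-like cells (2 of 10 read), and their part was not tested.

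Other genes of the pathway were counted from lists, and counts are given for the monocyte-like, macrophage-like and DRG immature B-like classes. In growth plate monocyte-like cells none of 10 transcription factors of class II genes, none of 7 endosomal proteases and processing enzymes, none of 6 costimulation genes, none of 8 interferon gamma response genes and none of 9 class I presentation genes was past the fold. H2-Eb2 was higher at 1.05, with 5 and 17 UMIs, where 4.31% of all genes were higher and 4.38% lower. In DRG monocyte-like cells 1 of 8 transcription factors read was higher, Nfya at 0.83, and 1 lower, Irf4 at -0.88. There 1 of 7 interferon gamma genes was higher, Gbp2 at 0.63, and 1 of 7 processing genes, the protease gene Ctsd at 0.73. None of 5 costimulation genes read and none of 9 class I genes was past the fold. Of all genes in this class 13% were higher and 7.51% lower. In DRG immature B-like cells 3 of 10 transcription factors were higher and 1 lower, where 16.4% of all genes were higher and 7.39% lower. Of 9 class I genes 4 were higher, Tap1 at 1.04, Nlrc5 at 0.82, Tapbp at 0.66 and Psmb9 at 0.60. The class I list median was 0.54 against 0.10 for all genes. None of 7 processing genes and none of 3 costimulation genes read was past the fold. Of 7 interferon gamma genes read 1 was higher and 1 lower. Cd83 was at 0.90 in the same cells.

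In growth plate macrophage-like cells 4 of 7 processing genes were higher, Ctsl at 1.74, Ctss at 0.93, Ctsd at 0.91 and Ctsh at 0.68, with a list median of 0.68 against -0.03 for all genes, and 3 of 4 costimulation genes read were lower, Cd274 at -1.90 among them. There 1 of 5 transcription factors read and 1 of 6 interferon gamma genes read were lower past the fold. Of 9 class I genes 1 was higher, and none of 3 turnover genes was past the fold. In DRG macrophage-like cells 3 of 3 turnover genes were higher, March1, a ubiquitin ligase of class II molecules, at 0.89, March8 at 0.82 and Cd83 at 0.85, and Irf1 was at 1.23. Of 5 transcription factors read in them 1 was higher and 1 lower, and of 5 costimulation genes read 2 were higher and 2 lower. Of 6 interferon gamma genes read 1 was higher, and of 9 class I genes 2 were. None of 7 processing genes was past the fold. The counts over genes in these small classes stand beside backgrounds of 13.1% higher and 16.5% lower in the growth plate and 17.5% higher and 14.8% lower in the DRG.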

How the data were processed

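Cells of 4 libraries, 1 per tissue and treatment, were measured by 10x Genomics single-cell RNA-seq. What the authors deposited are unnormalized UMI counts of every gene in every barcode. Per the file headers the program was Cell Ranger 7.2.0, and per the submitters' processing notes the build was mm10. The sources used here name no kit chemistry, annotation or use of strand. Barcodes were kept from 200 genes and up to 20% mitochondrial UMIs. Scrublet's own thresholds called 1, 615, 1 and 3 doublets, so its highest scoring cells were removed at 0.8% per 1000 barcodes, which took out 720, 1102, 95 and 50. Kept libraries had median depths of 6496.5, 7069, 10395 and 7026 UMIs per cell.

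The 2 libraries of a tissue were clustered together with scanpy 1.11.5 and igraph 0.11.9 (2000 variable genes without the 10 members, 30 components, 20 neighbours, resolution 2), and mixed clusters of at least 60 cells were split. A cluster took the name of its best marker list, with a score of at least 1 and 3 detected markers. The dendritic rule, a dendritic score of at least 2 and at least 5 markers detected in a monocyte-named cluster, was set after the clusters were seen. The UMIs of a class were added up within a library and given as CPM with exact 95% intervals (scipy 1.17.1), and shares with Clopper-Pearson intervals. Intervals and the limits of 3 counts that a count of 0 allows cover counting error only. Ratios had 0.5 UMI added to each count and compare 2 libraries, not conditions, in classes of at least 30 cells in each. In simulated counts of growth plate immature B-like cells (6712 genes) 100% of genes changed 3-fold were past the fold, and 0.783% of unchanged genes were. The simulation held only genes with at least 100 UMIs over both libraries, and only counting error. Its shares therefore do not apply to genes with fewer UMIs, to small classes or to differences between cells and animals. In the real counts of this class 8.82% of genes read were higher and 5.81% lower past the fold. Named are the 10 members, list genes past the fold in classes where members differed, and the 10 genes most like the class II core. Members and lists were chosen with earlier results of these data known. The gene targeted in these mice is not reported here.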

Additional observations from a re-analysis of the deposited data

Results flagged for a closer look

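Immature B-like cells of the growth plate and of the DRG had class II core ratios (H2-Aa, H2-Ab1 and H2-Eb1 summed, log2 of 1NMPP1 over vehicle) on opposite sides of 0, at -0.21 and 0.38, and the difference between the tissues was not tested. Male-called and female-called cells of one class also went opposite ways. In growth plate immature B-like cells the ratio was -1.06 in male-called and 0.33 in female-called cells. In DRG immature B-like cells it was -1.48 and 1.27, and in growth plate monocyte-like cells -0.86 and 1.02. With 1 library per group, differences between the sexes were not tested, and animals and sexes cannot be told apart.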

How the results depend on the processing

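Alternatives changed 1 choice at a time, and the 2 added after seeing the data left out the cell with the most class II core UMIs or counted dendritic-marker clusters as monocyte-like. No paired analysis was possible because each group has 1 library. The main results are the levels and class II core ratios detailed below. Of their ratios under alternatives 14 kept within the counting interval, 23 moved and 1 reversed, and of their levels 19 kept and 24 moved. Of other ratios, those of single genes in the same classes among them, 874 kept within the counting interval, 336 moved and 24 reversed. Of other levels 401 kept and 293 moved. The cause was not tested for any of them.

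The class II core of vehicle DRG macrophage-like cells was 10794 CPM with no doublets removed, 9695 thinned to 1000 UMIs, 9895 with cells weighed alike, 11587 in male-called cells, 4613 in the largest cluster and 10482 without the top cell. In 1NMPP1 growth plate mature B-like cells the class II core was 6784 CPM at a mitochondrial limit of 10%, 6968 thinned and 6781 with each library clustered on its own. In vehicle dendritic-marker monocyte-like cells the class II core was 8430 CPM with no doublets removed, 2590 at 500 genes or more, 4978 at the 10% limit, 8467 thinned, 7962 weighed alike, 4969 with the members used in clustering, 4184 with libraries clustered apart, 6143 in male-called cells, 12812 in the largest cluster and 6333 without the top cell. H2-DMa of vehicle myelinating Schwann-like cells was 54.0 CPM at the 10% limit, 43.0 thinned, 53.6 with libraries clustered apart, 52.8 in female-called cells and 24.8 in the largest cluster.

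The class II core ratio of growth plate monocyte-like cells was -0.63 with no doublets removed, -1.07 at 500 genes, -0.66 at the 10% limit, -0.70 thinned, -0.62 weighed alike, -0.81 with members used in clustering, -1.59 with libraries clustered apart, -0.75 in the largest cluster and -0.32 with dendritic-marker clusters counted in, and it reversed to 1.02 in female-called cells. The class II core ratio of DRG monocyte-like cells was -0.48, -0.76 and -1.39 under the first 3 of these, -1.97 weighed alike, -0.11 with libraries clustered apart, -2.82 in the largest cluster, -1.95 without the top cell and -0.81 with dendritic-marker clusters counted in. In dendritic-marker monocyte-like cells the class II core ratio was -0.55 with no doublets removed, 0.14 at 500 genes, -0.21 at the 10% limit and 1.20 with libraries clustered apart. In DRG macrophage-like cells it was 0.47 thinned and 0.39 weighed alike.

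Single genes reversed as follows. In female-called growth plate monocyte-like cells H2-Aa was at 0.87, H2-Ab1 at 0.99, H2-Eb1 at 1.29 and Cd74 at 0.56, and thinned cells of that class had H2-Oa at -0.40. In male-called DRG immature B-like cells H2-DMa was at -0.14, H2-DMb1 at -1.09, H2-DMb2 at -0.56 and H2-Oa at -0.95, and thinned H2-Oa was at -0.46. In pro-B-like cells H2-Eb1 was at 1.06 with no doublets removed, 1.93 thinned, 0.047 weighed alike and 1.55 in female-called cells. In cycling pre-B-like cells H2-Oa was at 0.21 in male-called cells, and thinned dendritic-marker monocyte-like cells had H2-DMb2 at 0.38. Growth plate macrophage-like Cd74 was at 0.31 at 500 genes and 0.45 with libraries clustered apart. In DRG monocyte-like cells H2-Eb1 was at 0.066 with libraries clustered apart and Ciita at 0.19 with no doublets removed and 0.25 thinned. In satellite glia-like cells H2-Ab1 was at 0.022 weighed alike and 0.80 in female-called cells, and Cd74 at 1.02 with no doublets removed. For 10 planned values of the main results too few cells were left, most of them in male-called or female-called cells of the dendritic-marker, DRG macrophage-like and DRG monocyte-like classes. In small classes and for genes under 50 UMIs counting error and single cells limit what can be read.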

Other observations

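Some blood classes that are not known for antigen presentation held single genes of the family. Basophil or mast cell-like cells of the growth plate, named from markers such as Mcpt8 and Cpa3, held H2-Oa at 71.5 CPM (55 UMIs) in the vehicle and 68.5 CPM (46 UMIs) in the 1NMPP1 library, above the 33.9 and 32.7 CPM of immature B-like cells. H2-Ob was at 18.2 and 25.3 CPM in them, so that H2-Ob made up 20.3% and 27.0% of the pair, against 71.8% and 70.4% in immature B-like cells. H2-Ab1 was at 37.7 CPM (29 UMIs) and 31.3 CPM (21 UMIs), while H2-Aa had 0 and 3 UMIs and Ciita 0 in both.

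H2-DMa reached the early blood cells. Hematopoietic progenitor-like cells held it at 113 and 115 CPM in 30 and 40 cells, and granulocyte progenitor-like cells at 61.6 CPM (815 UMIs) and 62.3 CPM (950 UMIs), with H2-DMb1 at 22.2 and 24.3 CPM. Neutrophil-like cells held H2-DMa at 4.17 and 5.05 CPM. NK cell-like cells held H2-DMa at 44.0 and 29.6 CPM with 29 UMIs in each library.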
